A study of Saccharomyces cerevisiae with 4 samples.

Results

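The 10 genes described here carry the making, breakdown and transport of glycerol in budding yeast (Saccharomyces cerevisiae) and the kinase of its osmotic stress response. They were taken by name and not by a threshold on measured values: GPD1 (YDL022W), GPD2 (YOL059W), GPP1 (YIL053W), GPP2 (YER062C), GCY1 (YOR120W), DAK1 (YML070W), GUT1 (YHL032C), STL1 (YDR536W), FPS1 (YLL043W) and HOG1 (YLR113W). The choice was made with earlier results of these data known. All 10 genes were found among the 7445 features of the count table. All 10 had enough counts to be tested, with between 284 and 85307 counts in any library. RNA in 2 libraries of a trf4 deletion strain (trf4Δ, genotype trf4::HphMX4, in which the hygromycin resistance cassette HphMX4 replaces the gene) was compared with RNA in 2 libraries of the wild type. Both genotypes were of the laboratory strain background W303 and were grown at 25 °C in YPDA, a rich glucose medium with adenine, to exponential phase at an optical density (OD600) of 0.8. No osmotic treatment is named in the labels. The labels do not say whether the libraries of a genotype came from separate cultures or clones, and p-values therefore measure only the spread between these libraries.

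Yeast cells balance the water pull of a salty or sugary medium by collecting glycerol. Glycerol is made from the glycolytic intermediate dihydroxyacetone phosphate by a dehydrogenase (Gpd1 or Gpd2) and a phosphatase (Gpp1 or Gpp2). It is held in or let out through the channel Fps1 and taken up again by the symporter Stl1. Osmotic stress activates the mitogen-activated protein kinase Hog1, which raises transcription of GPD1, GPP2 and STL1 among others, whereas GPD2 and GPP1 serve mainly redox balance and growth without oxygen. TRF4 encodes a noncanonical poly(A) polymerase that works within TRAMP, a nuclear complex whose short tails direct RNA to exosome decay.

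Library totals lay between 53516242 and 57964567 counts. TRF4, which is listed as PAP2, had 21 and 40 counts in trf4Δ against 8102 and 8468 counts in the wild type, as the labels require. All 4 markers of mating type a were abundant in every library, at 1657 to 21998 counts, while the alpha factor gene MF(ALPHA)1 had 16 and 30 counts in trf4Δ against 8 and 8 counts in the wild type. The 4 a markers were also lower in trf4Δ, with log2 fold changes of -0.36 for MFA1, -0.73 for MFA2, -0.52 for STE2 and -0.43 for BAR1 (adjusted p 0.000466 to 0.0486). The other alpha markers were STE3 and MF(ALPHA)2. STE3 had 246 and 408 counts in trf4Δ against 64 and 55 counts in the wild type. Its log2 fold change of 2.22 (adjusted p 0.000716) was the largest among these markers. MF(ALPHA)2 had 299 and 387 counts in trf4Δ against 225 and 252 counts in the wild type. MF(ALPHA)1 and MF(ALPHA)2 did not pass (1.28 and 0.29, adjusted p 0.0739 and 0.272). The part of these marker differences in the results given here was not tested. Levels are given as normalised read counts, that is as CPM, a library's counts scaled to a common total, with library sizes adjusted by the trimmed mean of M-values (TMM). In RNA of whole cultures, a lower level in every cell and fewer cells that express a gene cannot be told apart. With 2 libraries against 2 an exact two-sided permutation test cannot give a p below 0.333, so that tests come from a model fitted across all features.

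Of the 10 genes, 5 were higher in trf4Δ (GPD1, GPP2, GCY1, STL1 and HOG1), 2 were lower (GPP1 and FPS1) and 3 did not pass the threshold (GPD2, DAK1 and GUT1), at an adjusted p under 0.05 by edgeR's quasi-likelihood test. By the same test 31.3% of all 6372 features were higher and 28.9% were lower. The trf4Δ and wild-type libraries did not overlap for any of the 10 genes, which is also true of 81.9% of all features and so distinguishes little. The median log2 fold change was 0.32 over the 10 genes and 0.01 over all features. Of the 7 calls, that of FPS1 alone was lost under other settings, and with library size alone its value was 0.073 (adjusted p 0.509).

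**Figure D1:**
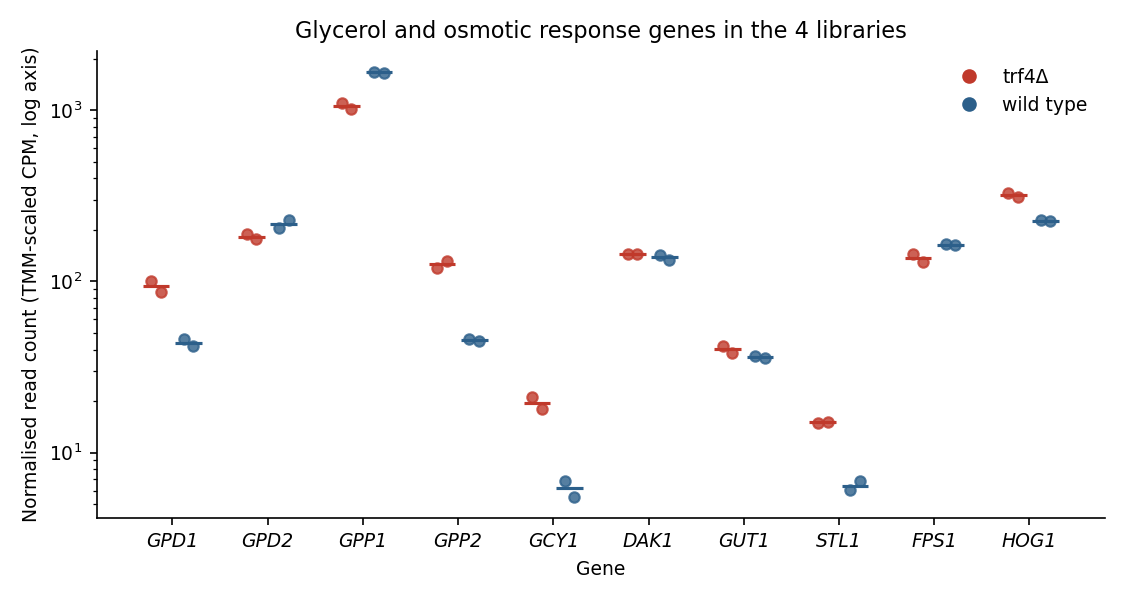
Normalised read counts (CPM, log axis) of the 10 genes in each library, with trf4Δ in red to the left of the wild type in blue for each gene, and a bar at the mean of 2 libraries. GPP2 stood at 119 and 133 CPM in trf4Δ against 45.9 and 44.6 CPM in the wild type, while DAK1 and GUT1 lay close together in both genotypes.

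The dehydrogenase step showed a difference between its 2 related genes. GPD1 (chrIV:411825-413000, + strand), which encodes the osmotically induced isoenzyme of glycerol 3-phosphate dehydrogenase, was at 101 and 86.4 CPM in trf4Δ against 45.9 and 41.8 CPM in the wild type. Both trf4Δ libraries were thus above both wild-type libraries, and the level was 2.14-fold higher, with a log2 fold change of 1.10 (SE 0.11) and an adjusted p of 0.000153. GPD2 (chrXV:217126-218448, + strand), the isoenzyme used mainly for redox balance, was at 188 and 177 CPM in trf4Δ against 204 and 230 CPM in the wild type. Its log2 fold change of -0.25 (SE 0.09, 95% interval -0.47 to -0.03) had an adjusted p of 0.0502 and did not pass. With library size alone this value was 0.073, so that its direction depended on the scaling. The summed level of both genes was 276 ± 18.6 CPM in trf4Δ and 261 ± 15.0 CPM in the wild type (SD, n = 2 each), and the libraries of the genotypes overlapped in this sum. As a share of all counts, without TMM, the sum was 0.0326% and 0.0292% in trf4Δ against 0.0226% and 0.0240% in wild-type libraries, without overlap.

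The phosphatase step also showed a difference between its related genes, and here both passed the threshold, in opposite directions. GPP2 (chrV:279930-280682, − strand), the osmotically induced glycerol 3-phosphatase, was at 119 and 133 CPM in trf4Δ against 45.9 and 44.6 CPM in the wild type. It was 2.78-fold higher, with a log2 fold change of 1.48 (SE 0.10), and its adjusted p of 2.58e-05 was the smallest among the 10 genes. GPP1 (chrIX:255115-255867, + strand), the constitutive form, was by far the most abundant of the set and moved the other way. Its level was 1097 and 1015 CPM in trf4Δ against 1675 and 1654 CPM in the wild type, a log2 fold change of -0.66 (SE 0.10) with an adjusted p of 0.000917. Because GPP1 dominated, the sum of both phosphatase genes was lower in trf4Δ, at 1182 ± 48.2 CPM against 1710 ± 15.9 CPM in the wild type (SD, n = 2 each).

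The sequences of each pair were compared, since a read that fits both genes could be counted for either. The genomic sequences of the coding regions were 82.7% identical for GPP2 and GPP1 and 65.7% identical for GPD1 and GPD2. No stretch of the read length of 76 bases was shared by a pair, and none of the 10 genes held such a stretch that occurs elsewhere in the RefSeq R64 genome. The reference is the strain S288C and not W303, and only exact matches were counted. The most alike 76 bases of each pair are printed here to show how far the isoenzymes can be told apart, with mismatched bases in capitals.
GPP2 (chrV:280550-280625, - strand): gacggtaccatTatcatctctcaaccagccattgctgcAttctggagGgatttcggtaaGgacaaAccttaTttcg
GPP1 (chrIX:255172-255247, + strand): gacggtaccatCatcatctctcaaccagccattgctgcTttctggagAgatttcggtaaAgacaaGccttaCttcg
GPD1 (chrIV:412486-412561, + strand): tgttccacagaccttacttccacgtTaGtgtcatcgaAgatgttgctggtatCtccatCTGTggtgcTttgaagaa
GPD2 (chrXV:217934-218009, + strand): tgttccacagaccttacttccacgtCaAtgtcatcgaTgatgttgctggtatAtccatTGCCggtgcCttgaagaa
The phosphatase pair differed by 6 bases in this window and by a median of 14 bases over all windows aligned without gaps. The dehydrogenase pair differed by 9 bases here and by a median of 19 bases.

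Ratios within a library are free of any scaling between libraries and were therefore also given. They are not free of the trend of fold change with abundance described below, since the genes of a pair differed in abundance. Features expressed like GPP2 and GPP1 had median log2 fold changes of -0.16 and -0.53. For GPD1 and GPD2 these medians were -0.08 and -0.26. The part of abundance in the ratios was not tested. Per base of gene length, GPP2 stood at 0.109 and 0.131 of the GPP1 count in trf4Δ, against 0.0274 and 0.0270 in wild-type libraries. The log2 ratio differed by 2.13 between the genotypes, a 4.38-fold shift towards GPP2. For GPD1 over GPD2 the ratio was 0.605 and 0.550 in trf4Δ against 0.253 and 0.205 in wild-type libraries, a 2.54-fold shift towards GPD1. In both genotypes the osmotically induced gene was still the less abundant of its pair. These differences exceeded the SD between libraries, which was at most 0.22 on the log2 scale for these pairs, and no test of the ratios was made with 2 libraries a group.

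**Figure D2:**
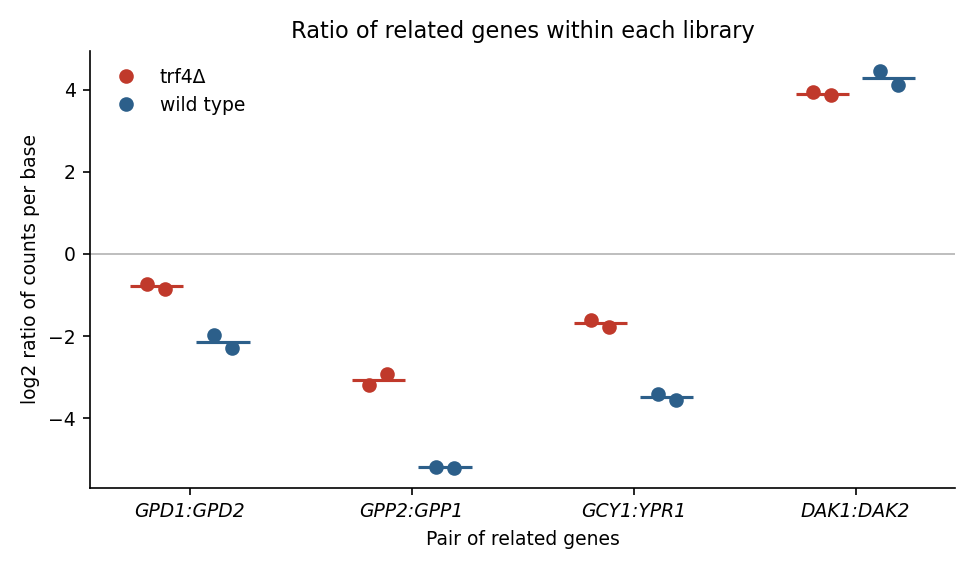
Log2 ratio of counts per base for 4 pairs of related genes, with a point for each library and a bar at the mean, trf4Δ in red to the left of the wild type in blue. The GPP2:GPP1 ratio lay at -3.20 and -2.94 in trf4Δ against -5.19 and -5.21 in wild-type libraries. DAK1:DAK2 moved in the opposite direction. The genes of each pair differed in abundance, and the part of abundance in these shifts was not tested.

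Of the genes for glycerol breakdown, GCY1 rose and DAK1 and GUT1 did not pass the test. GCY1 (chrXV:551114-552052, + strand) encodes an aldo-keto reductase that can act as a glycerol dehydrogenase, and it was at 21.1 and 17.9 CPM in trf4Δ against 6.85 and 5.53 CPM in the wild type. This was a 3.14-fold higher level, with a log2 fold change of 1.65 (SE 0.17) and an adjusted p of 0.000161. Its relative YPR1, a further aldo-keto reductase, did not follow, with a log2 fold change of -0.13 (SE 0.10) and an adjusted p of 0.259. The GCY1:YPR1 ratio per base was 0.330 and 0.291 in trf4Δ against 0.0947 and 0.0849 in wild-type libraries, a 3.45-fold shift.

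DAK1 (chrXIII:133475-135229, + strand) encodes the dihydroxyacetone kinase that takes up the product of the Gcy1 reaction. It was at 144 and 144 CPM in trf4Δ against 143 and 133 CPM in wild-type libraries. The groups lay close but did not overlap, and the log2 fold change of 0.07 had a 95% interval of -0.13 to 0.27 (adjusted p 0.527), and with library size alone it was 0.39 and passed (adjusted p 0.00699). DAK2, which encodes a second such kinase at a much lower level, was at 9.80 CPM in trf4Δ and 7.17 CPM in the wild type on average, a log2 fold change of 0.45 (SE 0.17) with an adjusted p of 0.0492. GUT1 (chrVIII:36379-38508, − strand) encodes glycerol kinase, the entry of external glycerol into metabolism, which glucose represses. It was at 42.0 and 38.3 CPM in trf4Δ against 36.7 and 35.9 CPM in wild-type libraries. Its log2 fold change was 0.15 with a 95% interval of -0.09 to 0.38 (adjusted p 0.244), and 0.47 with library size alone (adjusted p 0.00599). GUT2, the mitochondrial glycerol 3-phosphate dehydrogenase that follows glycerol kinase in the same route, rose to 47.8 and 48.2 CPM in trf4Δ, against 13.1 and 12.2 CPM in the wild type. This is a log2 difference of 1.92 (SE 0.11, adjusted p 1.69e-05).

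The transport genes did not move together. STL1 (chrIV:1508005-1509714, + strand), the glycerol-proton symporter of the plasma membrane, was the least abundant of the 10 genes by length and was at 14.9 and 15.1 CPM in trf4Δ against 6.03 and 6.80 CPM in the wild type. The level was 2.34-fold higher, with a log2 fold change of 1.23 (SE 0.15) and an adjusted p of 0.000371. FPS1 (chrXII:49938-51947, + strand), the channel through which glycerol leaves the cell, was at 145 and 131 CPM in trf4Δ against 165 and 162 CPM in wild-type libraries. The trf4Δ libraries were both lower, by a log2 fold change of -0.25 (SE 0.09, adjusted p 0.0424). Without trf4Δ replicate 2, without wild-type replicate 1 or without wild-type replicate 2 the call of FPS1 was lost, at adjusted p values of 0.167, 0.158 and 0.133, and with library size alone the value was 0.073. The genes of the Fps1 regulators, by contrast, were both higher, with log2 fold changes of 0.95 (SE 0.08) for ASK10 and 0.54 (SE 0.08) for RGC1 (adjusted p 8.49e-05 and 0.000965).

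HOG1 (chrXII:371620-372927, + strand), the kinase of the pathway, was at 327 and 313 CPM in trf4Δ against 230 and 224 CPM in the wild type. The difference was small and steady, with a 1.41-fold higher level, a log2 fold change of 0.50 (SE 0.08) and an adjusted p of 0.00154. It concerns the RNA alone, since Hog1 is activated by phosphorylation, which was not measured.

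**Figure D3:**
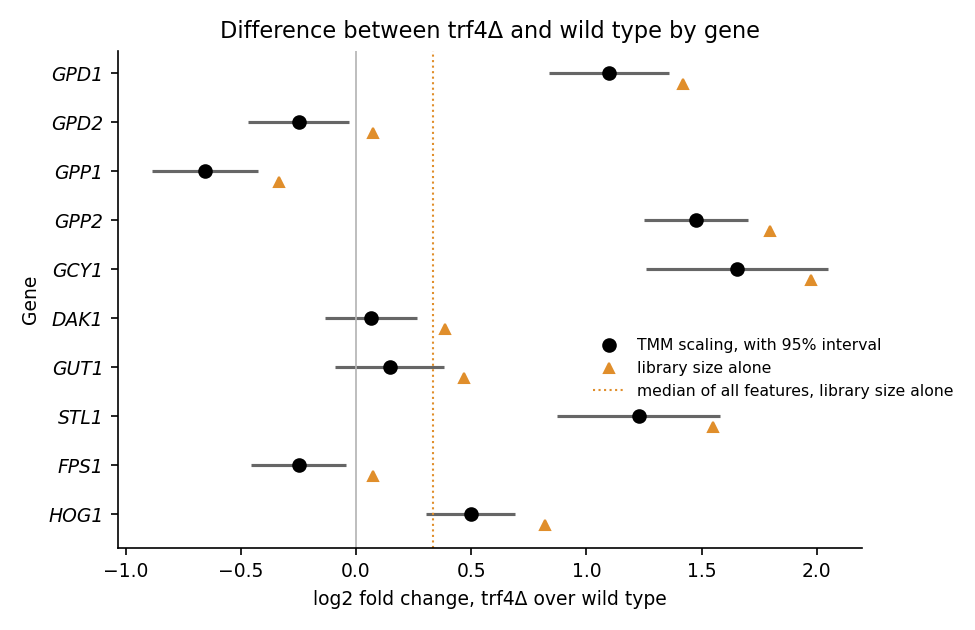
Log2 fold change of trf4Δ over the wild type for each of the 10 genes, in black with its 95% interval under TMM scaling and as orange triangles with library size alone. The dotted line marks the median of all features with library size alone, 0.34, and GPD2 and FPS1 change sign between the scalings.

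The scaling shifted all genes alike. The median of all features was 0.34 on the log2 scale with library size alone, against 0.01 with TMM, and the number of genes called became 7 higher and 1 lower. Relative to the median of all features the values hardly moved, for example 1.46 for GPP2 and -0.67 for GPP1 under either scaling. Relative to that median, GPD2 and FPS1 were both at -0.26 under either scaling.

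Levels between genes can be compared only per length. GPP1 was the most abundant of the set at 1402 CPM per kb in trf4Δ and 2210 CPM per kb in the wild type. HOG1 followed at 245 CPM per kb in trf4Δ and 173 CPM per kb in the wild type. In trf4Δ the next were GPP2 (167 CPM per kb), GPD2 (138 CPM per kb), DAK1 (82.3 CPM per kb), GPD1 (79.8 CPM per kb) and FPS1 (68.5 CPM per kb), of which DAK1 and GPD1 overlapped between libraries. In the wild type GPD2 (164 CPM per kb) overlapped with HOG1, followed by FPS1 (81.4 CPM per kb) and DAK1 (78.7 CPM per kb), which overlapped with each other, and then by GPP2 (60.1 CPM per kb) and GPD1 (37.3 CPM per kb). GPP2 and GPD1 thus ranked below FPS1 in the wild type and above it in trf4Δ. At the low end of the order in trf4Δ stood GCY1 (20.7 CPM per kb), which overlapped with GUT1 (18.8 CPM per kb), and STL1 (8.78 CPM per kb). The low end in the wild type was GUT1 (17.0 CPM per kb), GCY1 (6.60 CPM per kb) and STL1 (3.75 CPM per kb).

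Across all features the fold change followed abundance, and each gene is therefore set beside features of like expression. With the 6372 features cut into 10 groups by their mean expression, GPP1 fell in the highest group, whose median log2 fold change was -0.53, against -0.66 for GPP1 itself. GCY1 and STL1 fell in group 2 from the lowest, with a median of 0.72 against their values of 1.65 and 1.23. GPD1 (1.10) and GPP2 (1.48) lay among features with medians of -0.08 and -0.16, and HOG1 (0.50) lay in a group with a median of -0.26. The values of GPD2 (-0.25), FPS1 (-0.25) and GUT1 (0.15) were within 0.07 of the medians of their groups, at -0.26, -0.18 and 0.13. DAK1 (0.07) lay above the median of its group, which was -0.18. By fold change within their groups, from the lowest, GPP2, GPD1 and HOG1 stood at percentiles 96.5, 95.1 and 89.3. GCY1, DAK1 and STL1 stood at percentiles 80.1, 71.3 and 68.9. For GUT1, GPD2, FPS1 and GPP1 the percentiles were 51.5, 51.0, 42.9 and 39.1. YPR1 (-0.13) and DAK2 (0.45), at percentiles 54.2 and 16.2 of mean expression, lay in groups with medians of -0.08 and 0.72. DAK2 was thus below the median of its group. The part of abundance in these differences and in the ratios of related genes was not tested.

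**Figure D4:**
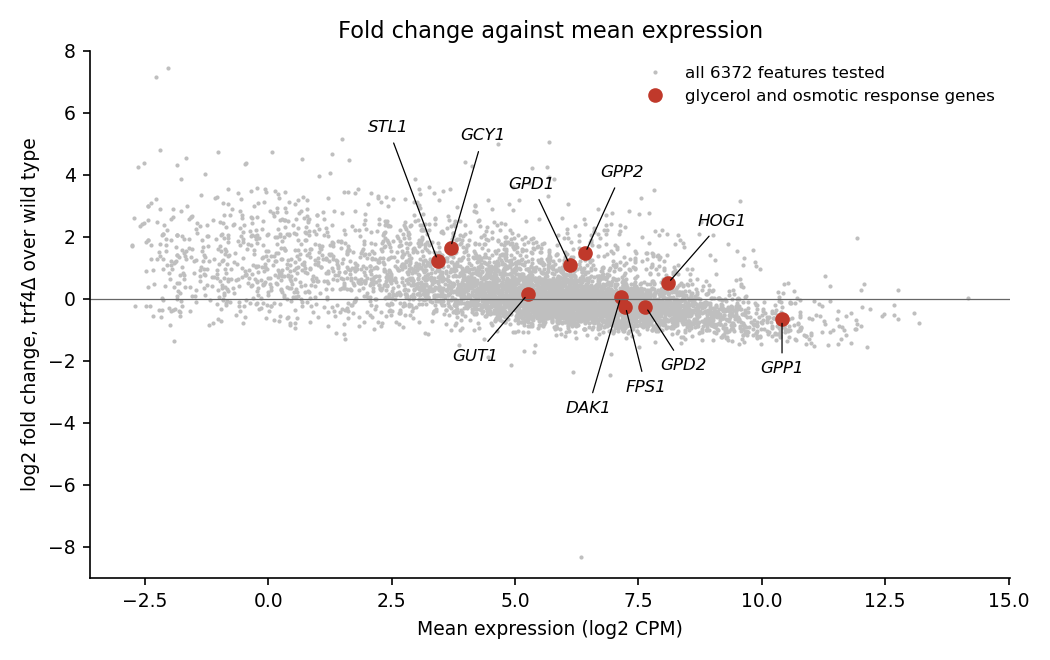
Log2 fold change of trf4Δ over the wild type against mean expression (log2 CPM) for all 6372 features tested, in grey, and the 10 genes, in red with their names. GPD1, GPP2 and HOG1 lie above the bulk of features of like expression, whereas GPD2, FPS1, GUT1 and GPP1 lie within it. GCY1, DAK1 and STL1 lie at percentiles 80.1, 71.3 and 68.9 of their groups by expression. The lowest point is the deleted gene at -8.31.

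The wider pathway was described by 5 lists with 52 genes in all, none of them among the 10, and all 52 could be tested. Of these, 31 were higher, 2 were lower and 19 did not pass, with a median log2 fold change of 0.45. Of all features, 31.3% were higher and 28.9% were lower, and the median was 0.01. The lists were chosen with earlier results of these data known and were not set beside features of like expression. The counts beside the shares of all features are therefore a description, here and in the lists below. Among 11 other genes of glycerol and glycerol 3-phosphate metabolism, 8 were higher (31.3% of all features) and 3 did not pass, with a median of 0.64. Here YIG1, whose product interacts with the glycerol phosphatase Gpp1, showed the highest change at 28.3 and 24.6 CPM in trf4Δ against 5.20 and 4.87 CPM in the wild type, a log2 fold change of 2.39 (SE 0.14, adjusted p 2.02e-05). GIT1, a permease for glycerophosphoinositol, was at 307 and 334 CPM in trf4Δ against 125 and 122 CPM in wild-type libraries (log2 fold change 1.37, SE 0.09, adjusted p 2.48e-05).

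Of 14 genes that act upstream of HOG1, 7 were higher (31.3% of all features), 1 was lower (28.9% of all features) and 6 did not pass, with a median of 0.20. SSK22, a kinase of the Sln1 branch, had a log2 fold change of 1.22 (SE 0.10) and SSK1, the response regulator of that branch, one of 1.01 (SE 0.10). PBS2, the kinase that phosphorylates Hog1, was higher by 0.39 (SE 0.08), and HKR1, a mucin-like sensor, by 0.51 (SE 0.11). SHO1, a membrane protein of the other branch, was the lower gene at -0.47 (SE 0.08), and with library size alone it did not pass (-0.15). The adjusted p of these 5 genes ranged from 5.47e-05 to 0.00507. The count of higher genes in this list was 4 without wild-type replicate 2.

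Of 6 genes of the phosphatases that switch Hog1 off and of an adaptor, 1 was higher (31.3% of all features) and 1 was lower (28.9% of all features), with a median of -0.10. Both were the genes of tyrosine phosphatases. PTP2 was at 180 and 220 CPM in trf4Δ against 56.1 and 65.1 CPM in the wild type, a log2 fold change of 1.72 (SE 0.13, adjusted p 3.98e-05). PTP3 was at 52.9 and 48.7 CPM in trf4Δ against 65.2 and 70.5 CPM in the wild type, a log2 fold change of -0.42 (SE 0.10, adjusted p 0.0074). The call of PTP3 was lost without wild-type replicate 2 (-0.35, adjusted p 0.0621) and with library size alone (-0.10, adjusted p 0.418).

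Of 8 regulators downstream of HOG1, 4 were higher (31.3% of all features) and 4 did not pass, with a median of 0.27. These were the kinase gene RCK1 (1.83, SE 0.21), the transcription factor genes SMP1 (1.60, SE 0.11) and MSN4 (1.37, SE 0.10), with adjusted p values of 0.000276, 2.67e-05 and 3.32e-05, and MSN1 (0.29, SE 0.10, adjusted p 0.0393). The call of MSN1 was lost without trf4Δ replicate 2, without wild-type replicate 1 and without wild-type replicate 2 (0.24, 0.34 and 0.26, adjusted p 0.116, 0.0914 and 0.174) and with DESeq2 (0.28, adjusted p 0.0562). HOT1 and SKO1, which encode transcription factors that act with Hog1, did not pass (0.02 and 0.12, adjusted p 0.901 and 0.354). With library size alone all 8 were called higher.

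Genes induced by osmotic stress outside glycerol metabolism showed the highest values, with 11 of 13 higher (31.3% of all features) and a median of 2.12. GRE1, a hydrophilin gene, was at 23.7 and 18.6 CPM in trf4Δ against 2.06 and 1.71 CPM in the wild type (log2 fold change 3.48, SE 0.20). HSP12, a membrane-stabilising small heat shock protein gene, was at 70.4 and 114 CPM in trf4Δ against 8.97 and 9.41 CPM in the wild type (3.33, SE 0.22), so that the trf4Δ libraries differed from each other but were far above the wild type. CTT1, the cytosolic catalase, was higher by 2.32 (SE 0.13) and MSC1 by 2.12 (SE 0.13). The adjusted p of these 4 genes ranged from 1.79e-05 to 3e-05. By mean expression GRE1, CTT1, MSC1 and HSP12 lay at percentiles 19.1, 26.3, 33.6 and 46.7 of all features, counted from the lowest. Features with the low expression of GRE1, in group 2 from the lowest, had a median log2 fold change of 0.72. The part of abundance in the values of this list was not tested. The list is not specific to osmotic stress, and CTT1, HSP12 and DDR2, for example, are also induced by many other stresses. The 2 genes that did not pass were GRE2 (0.26, adjusted p 0.0851) and GLO1 (0.13, adjusted p 0.244).

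**Figure D5:**
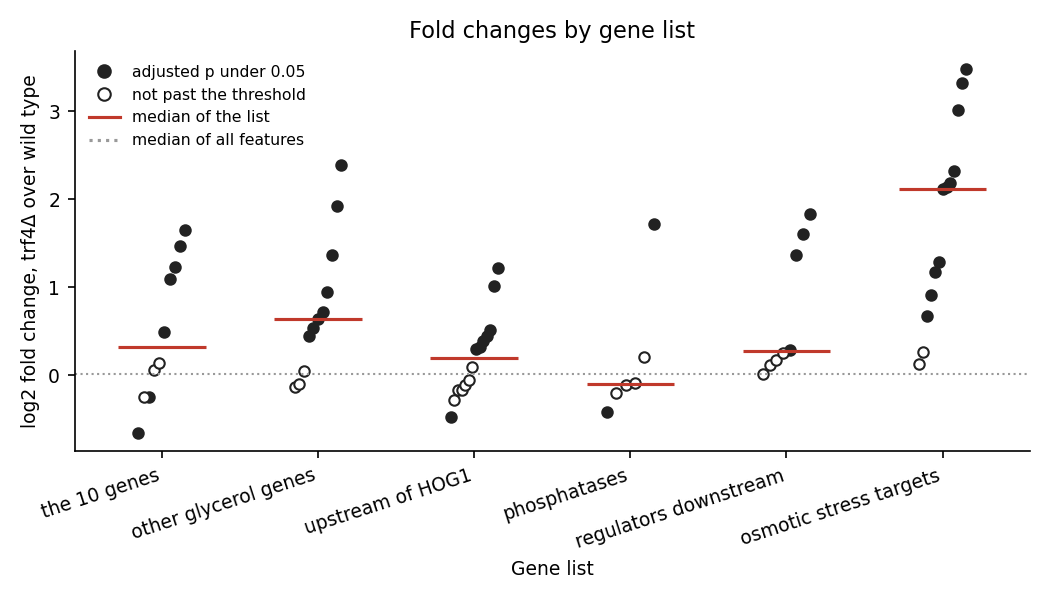
Log2 fold change of trf4Δ over the wild type for the 10 genes and for 5 lists of related genes, with a point for each gene (filled at an adjusted p under 0.05), a red bar at the median of the list and a dotted line at the median of all features, 0.01. The list of osmotic stress targets has a median of 2.12, against 0.32 for the 10 genes and -0.10 for the phosphatase list.

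The sequence before the genes was searched for the stress response element, bound by Msn2 and Msn4, and for the core of the site of Sko1. The letters used were AGGGG and TGACGT, each on both strands (CCCCT and ACGTCA on the other strand). In the 600 bases before the start of the coding sequence, 6 of the 10 genes held AGGGG (GPD1, GPD2, GPP2, GCY1, GUT1 and STL1), among them 4 of the 5 genes that were higher (2 of the 5 in the shorter window described next). Of 5999 protein-coding genes, 39.7% held it in such a window. TGACGT was found before GPP2 and STL1, and 16.2% of all genes held it. In the shorter window of 250 bases before to 50 bases after the start, 4 of the 10 genes held AGGGG (21.6% of 6001 genes) and 0 held TGACGT (7.55%). A match is a description of the letters and not of binding. The stretch from 300 to 151 bases before the start is printed for the glycerol genes that were at least 2-fold higher, from RefSeq R64 with matches in capitals.
GPD1 (chrIV:411525-411674, + strand): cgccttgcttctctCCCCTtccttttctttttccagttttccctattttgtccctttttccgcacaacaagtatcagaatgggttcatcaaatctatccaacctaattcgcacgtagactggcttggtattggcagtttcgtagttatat
GPP2 (chrV:280833-280982, - strand): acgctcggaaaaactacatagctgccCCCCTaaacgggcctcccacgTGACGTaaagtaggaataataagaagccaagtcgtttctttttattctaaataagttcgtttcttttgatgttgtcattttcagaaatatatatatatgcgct
GCY1 (chrXV:550814-550963, + strand): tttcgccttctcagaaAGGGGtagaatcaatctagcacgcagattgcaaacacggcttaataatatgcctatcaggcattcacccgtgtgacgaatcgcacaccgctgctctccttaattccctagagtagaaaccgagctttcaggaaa
STL1 (chrIV:1507705-1507854, + strand): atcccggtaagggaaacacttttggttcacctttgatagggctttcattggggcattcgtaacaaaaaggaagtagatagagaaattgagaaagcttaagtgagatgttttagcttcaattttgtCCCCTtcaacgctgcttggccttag
In the stretches shown, the matches to AGGGG began 286 bases before the start of GPD1, 274 before GPP2, 284 before GCY1 and 175 before STL1. GPD1 also held AGGGG at 330 and 34 bases, outside the stretch shown, and the site at 34 bases is the one in the shorter window. GPP2 also held TGACGT at 253 bases, and STL1 held it at 427 bases, outside the stretch shown.

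The neighbours of the 10 genes on the chromosomes were examined because the strand used in counting is not given in the sources used here. Each of the 10 genes is a single exon in RefSeq R64 and overlaps no other RefSeq gene, with gaps of 139 to 3104 bases to the next. Of 20 neighbours, 17 were tested, of which 5 were higher and 8 were lower. Of all features, 31.3% were higher and 28.9% were lower. The share of higher neighbours was thus close to that of all features, while the share of lower neighbours was above it. The reason for this was not tested. GPM2, 952 bases downstream of GPD1, was at 18.6 and 24.4 CPM in trf4Δ against 2.95 and 3.78 CPM in the wild type (log2 fold change 2.68, SE 0.20, adjusted p 4.61e-05). ARG1, a gene of arginine synthesis 762 bases downstream of GPD2, was lower (-1.02, SE 0.10, adjusted p 0.000151). YIL054W, which ends 254 bases before GPP1 on the same strand, had 127 and 144 counts in trf4Δ against 19 and 25 counts in the wild type (2.38, SE 0.32, adjusted p 0.000538), whereas GPP1 itself was lower.

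GCY1 shares its upstream region with RIO1, a kinase gene that the series is named after. The genes are divergent, with 867 bases between their coding sequences on chromosome XV. RIO1 was at 88.1 and 89.0 CPM in trf4Δ against 145 and 147 CPM in the wild type, a log2 fold change of -0.72 (SE 0.08, adjusted p 0.000268), while GCY1 was higher. Downstream, the count table holds YOR121C, a name of the opposite strand between GCY1 and PFY1 that is not in the RefSeq table. The genome holds a single open reading frame of at least 100 codons on that strand between the start of GCY1 and that of PFY1 (101 codons, chrXV:551798-552103), and 255 of the 939 bases of GCY1 lie in it. YOR121C had 1212 and 1207 counts in trf4Δ against 1431 and 1398 counts in the wild type (log2 fold change -0.46, SE 0.11, adjusted p 0.00713). In the wild type it thus held more counts than GCY1, with 349 and 284. How reads were divided between GCY1 and a feature on the other strand is not known, and the count of GCY1 is uncertain to that extent. The values of GCY1 and YOR121C differed in direction. Further names of the opposite strand outside RefSeq stand next to GPD1 (YDL023C), STL1 (YDR537C) and FPS1 (YLL044W). Their counts were 30 and 24, 17 and 17, and 10 and 10 in trf4Δ, against 11 and 8, 12 and 8, and 3 and 2 in the wild type. YDL023C alone was called (1.26, adjusted p 0.0470), and whether these names overlap the 3 genes was not examined.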

How the data were processed

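RNA was sequenced from 2 trf4Δ and 2 wild-type libraries. Per the labels, ribosomal RNA was removed from DNase-treated total RNA before ScriptSeq v2 libraries were made, with paired-end reads of 76 bases. The authors deposited whole-number counts per feature, a column per library, without normalisation. The submitters' processing notes name STAR 2.5.3 and sacCer3. The counting program and its use of strand are not given in the sources used here. sacCer3 is the same assembly as R64, from which RefSeq coordinates and sequences were taken. Of 7445 features, 6048 matched RefSeq names. The paper paired with these data describes other cells and was not used for methods.

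edgeR 4.0.16 under R 4.3.3 was used for the main test (filterByExpr, which left 6372 features, TMM, and the quasi-likelihood test of genotype in a fit of the 4 libraries with no covariate, two-sided), with p-values adjusted after Benjamini-Hochberg across the features tested (threshold 0.05). The SE is the log2 fold change over the square root of F. The fit was also run on simulated counts in which few features changed, in both directions. Most features are called in the real data, so that this run cannot check the choice of scaling. Before scaling, 1 count equalled between 0.0173 and 0.0187 CPM. Replicate numbers follow the order of deposition and pair nothing.

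The 10 genes and the gene lists were chosen with earlier results of these data known. Named were the 10 genes, the deleted gene, neighbours, and up to 4 genes per list and direction with the smallest adjusted p under 0.05. DAK2, YPR1, RGC1, HOT1, SKO1, DDR2, GRE2, GLO1, the grouping by expression and the windows of 600 bases and of 300 to 151 bases were chosen after values were seen. Sequences were compared with Biopython 1.88. Alternatives were other scalings (size factors of the DESeq2 type, library size alone, TMM from nuclear reading frames), no filter or at least 10 counts in every library, a robust fit, DESeq2 1.42.0, thresholds of 0.01 and 0.1, and leaving out each library, where the lone library is assumed to vary like the others.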

Additional observations from a re-analysis of the deposited data

How the results depend on the processing

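GPD1, GPP2, GPP1, GCY1, STL1 and HOG1 kept their direction and call under all 13 alternatives, and 5 genes were called higher throughout except with library size alone, which gave 7. The lower genes numbered 1 with library size alone, with at least 10 counts in every library and at a threshold of 0.01. Leaving out single libraries gave 1 to 2 lower genes. FPS1 was 0.073 with library size alone, lost its call with at least 10 counts in every library (-0.23, adjusted p 0.0580) and at a threshold of 0.01 (-0.25), and lay between -0.32 and -0.18 when single libraries were left out. GPD2 was 0.073 with library size alone and passed with size factors of the DESeq2 type (-0.26), a robust fit (-0.25), DESeq2 (-0.27) and a threshold of 0.1 (-0.25). DAK1 (0.39) and GUT1 (0.47) passed with library size alone. The cause of these changes was not tested, beyond the shift of all features by the scaling. Of the 19 list genes named by rule, 16 kept direction and call throughout, and the other 3 were SHO1, PTP3 and MSN1. List genes called lower numbered 0 with library size alone and 1 to 3 when single libraries were left out, and those called higher numbered 25 to 40. Without single libraries the log2 ratio difference of DAK1 to DAK2 lay between -0.56 and -0.22. With 2 libraries a group, an effect near the size of the values of GPD2 or FPS1 is at the limit of what these data separate.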
